A study of Rattus norvegicus with 24 samples.

Results

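The genes described here make the plasma proteins of complement, blood clotting and the acute phase response. Their members were taken from a list of 50 gene symbols through the array's annotation, and 44 of them had a probe set that names no other gene, of 14201 genes so measured. C2 and Cfb share all their probe sets with each other, Kng1 shares its probe set with Kng2l1 and Kng2, and F7, F11 and F13b were named by none, so these 6 members were not tested. Liver and spleen came from 12 wild-type male Sprague-Dawley rats aged 46 to 49 days, given cyclophosphamide or vehicle by mouth over 5 days and housed either with wood sticks or without. The groups were cyclophosphamide (40 mg/kg/day) with wood, cyclophosphamide without wood, vehicle with wood and vehicle without wood, with 3 rats in each. Each organ of each rat had 1 Affymetrix Rat 230 2.0 array, 24 arrays in all.

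Complement is a chain of proteases and binding proteins in plasma: C1r, C1s and the MASP proteases start it, C3 and C5 are cut in turn, and the terminal proteins from C6 to C9 form a pore in the target membrane. Clotting runs through a similar chain of factors to thrombin, which turns fibrinogen into fibrin, while antithrombin and proteins C and S hold it back and plasmin dissolves the clot. Hepatocytes make most of these proteins, and during inflammation interleukin 6, acting through Stat3 and C/EBP factors, raises the acute phase proteins; in the rat, alpha-2-macroglobulin (A2m) is the classic strong responder. Cyclophosphamide is an alkylating drug activated by liver enzymes that kills dividing blood-forming and lymphoid cells.

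The values were log2 intensities, so that a difference of 1 is a doubling. Cells without a value numbered 4924 to 6060 per array in liver, against 1021 to 1920 in spleen. The median intensity of an array was 89.7 to 101 (liver) or 113 to 121 (spleen). The liver array of rat 2003 (cyclophosphamide without wood) had the most blanks, and 4 spleen arrays, all without wood, had over 1500: those of rats 2005 (cyclophosphamide) and 1001, 1003 and 1005 (vehicle). Alb, the serum albumin gene that marks hepatocytes, was at 13.13 to 13.5 on the liver arrays and at 4.88 to 9.12 on the spleen arrays. Ms4a1, which encodes the B cell surface protein CD20, was at 5.34 to 7.38 in liver and at 12.13 to 12.58 in vehicle spleens.

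In liver, 42 of the 44 members lay above the array median on all 12 arrays. By their mean rank over these arrays, 25 lay in the top 1% of probe sets with a value. The exceptions were A2m, above the median on 10 arrays, and Lcn2, which encodes the iron-siderophore binder lipocalin 2, above it on 5. Mean liver levels reached 13.64 for Ahsg (fetuin A, an inhibitor of mineral deposition), 13.6 for C3, 13.59 for Itih4 (an inter-alpha-inhibitor chain) and 13.57 for the fibrinogen chain Fgg. The brightest probe set of a liver array stood at 13.74 to 13.96, and 14 members lay within 0.5 of the lowest of these tops, where an array can compress differences. Levels of different genes here come from different probes, so their order is that of signals and not of RNA amounts.

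In spleen, 6 members were above the array median on all 12 arrays: C1r, C1s, Masp1, Serping1, Pros1 and A2m. Another 30 members were above it on 0 arrays, and 11 members had at least 1 blank. C1s averaged 12.59 in liver and 12.27 in spleen, and C1r 11.99 and 11.75, so the initiating proteases of the classical pathway were bright in both organs. At the other end, F9, the clotting factor absent in haemophilia B, averaged 12.63 in liver and 1.98 over the spleen arrays with a value.

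Between the organs, limma called 37 of 39 tested members higher in liver than in spleen (background 21.8% of 12474 genes) and 1 lower (background 63.8%), after Benjamini-Hochberg adjustment at 0.05. The median difference of the members was 7.26, and that of all tested genes was -0.71. Plasminogen (Plg), the precursor of plasmin, had 13.36 on average in liver and 5.54 in spleen. Such differences are rough, since the liver value lies near the array's top and the spleen value below the array median on all 12 arrays. A2m was the member called lower in liver, by -0.72 ± 0.23 (adjusted p = 0.00771), and C1r differed by 0.25 ± 0.12 (adjusted p = 0.0542). The value of A2m depends on how the organs are put on a common scale, with a difference of -0.14 (adjusted p = 0.587) with each array centred on its median and of -0.20 (0.448) after quantile normalisation. Those scalings moved the median difference of all genes to -0.13 and -0.30. C1s, higher in liver by 0.32 ± 0.05 (adjusted p = 6.76e-06), was lower there by -0.20 (adjusted p = 0.00261) after quantile normalisation.

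**Figure D1:**
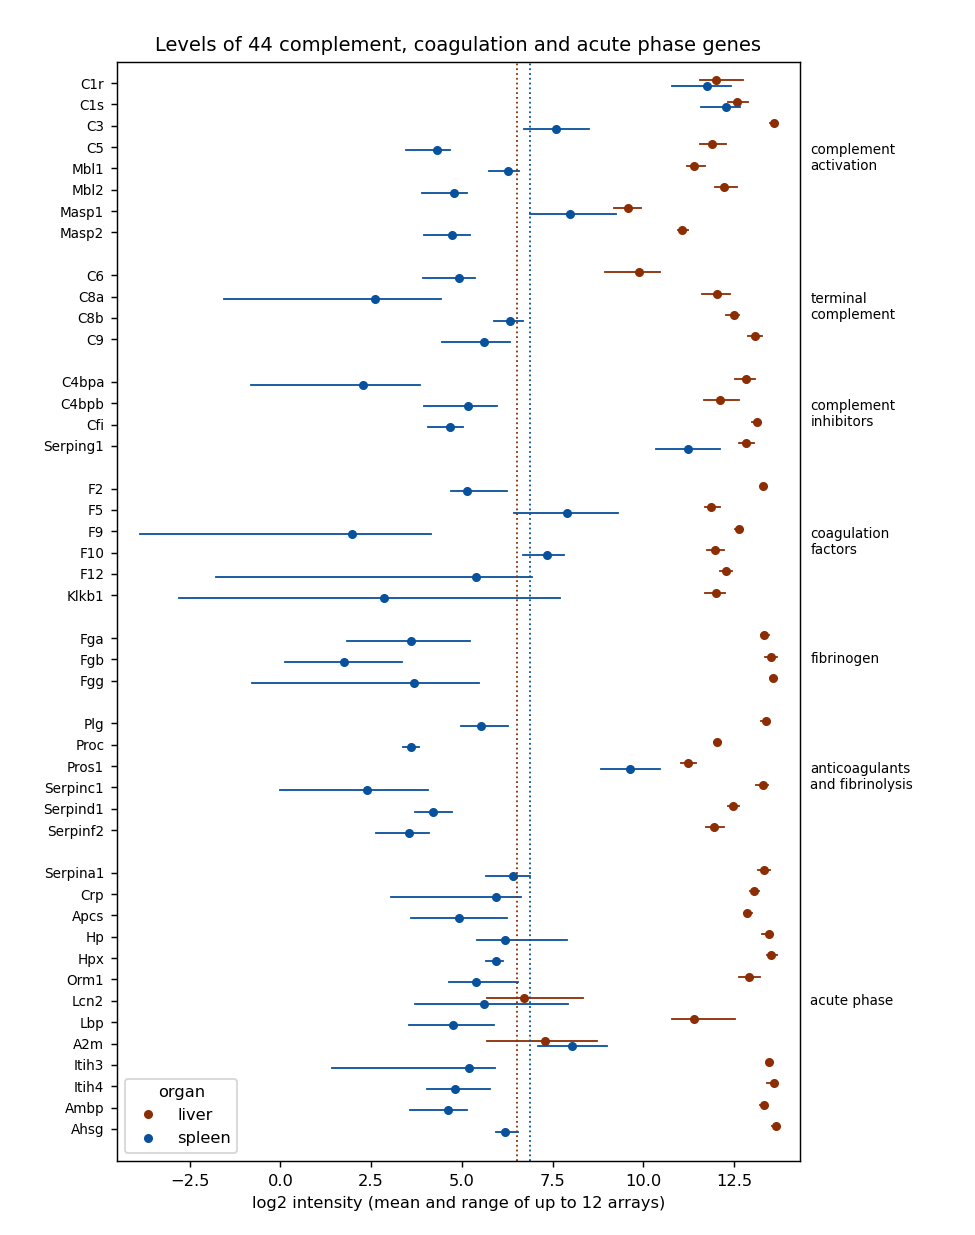
Mean log2 intensity (point) and range (line) of each member over the arrays with a value, liver in brown and spleen in blue, with dotted lines at the mean array median of each organ. In liver 42 of 44 members sit right of the median on every array, while in spleen 30 members sit left of it on every array.

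In liver, a single member passed the test for cyclophosphamide against vehicle, C5, the precursor of the inflammatory peptide C5a and of the pore starter C5b. limma called 1 member higher in cyclophosphamide livers (background 0.166% of 12683 genes) and 0 lower (background 0.647%). An unadjusted p under 0.05 was found in 14 of 44 members and in 1811 of 12683 genes. The log2 change was positive in 34 members and negative in 10, while 46.1% of all genes were positive. Its median was 0.10 in the members, against -0.02 over all genes tested. The values of the 6 cyclophosphamide livers lay wholly above those of the 6 vehicle livers in 7 of 43 members with a value on every liver array (background 1.06% of 10799 genes): C5, C1s, C4bpb, Lbp, Serpinf2, Orm1 and Fgb. In 0 members did they lie wholly below (background 1.82%). In whole tissue, a change in the number of a cell type and a change in RNA per cell cannot be told apart, here or in the spleen.

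C5 had a lowest, median and highest value of 11.97, 12.09 and 12.28 in cyclophosphamide livers, against 11.56, 11.66 and 11.72 in vehicle livers. The 2 sets of rats did not overlap, and rat 2001 was the highest. The log2 change was 0.44 ± 0.07 (SE; 1.36-fold; adjusted p = 0.0228). It was 0.40 ± 0.10 with wood (adjusted p = 0.269) and 0.48 ± 0.10 without (adjusted p = 0.119), neither of which passed. When 1 rat was left out, C5 passed in 5 of 12 refits, with changes between 0.41 and 0.47. It missed the threshold, with an adjusted p of at most 0.068, without vehicle rat 1001, 1003, 1005, 3001, 3003 or 3005 or without cyclophosphamide rat 4003, which left 0 members called. Without rat 2001 or 2003 the count was 2, and without 2005 it was 3. With trended and robust moderation limma called 6 members: C1s (adjusted p = 0.00441), C4bpb (0.0186), Fgb (0.0303), Lbp (0.0209) and Serpinf2 (0.0123) joined C5 (0.00298). The share of all genes called under that moderation is not given here.

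The other early complement members were tested beside it. C1s, the protease that cuts C4 and C2, had 12.64, 12.75 and 12.88 (lowest, median, highest) in cyclophosphamide livers, against 12.33, 12.43 and 12.48 in vehicle livers. It thus did not overlap either, and its change of 0.33 ± 0.06 had an adjusted p of 0.0501. C1r, its partner, had a change of 0.37 ± 0.20 (adjusted p = 0.437), with rats 2001, 4001 and 4005 at 12.43 to 12.73 but vehicle rat 1001 also at 12.43. The mannose-binding lectin Mbl1 had 0.24 ± 0.08 (adjusted p = 0.199), and Mbl2, Masp1, Masp2 and C3 lay between -0.07 and 0.13. A dimmer probe set of Masp1 averaged 7.81 in cyclophosphamide livers and 5.92 in vehicle livers, a difference of 1.89, so the probe sets of Masp1 disagree in liver. C3, the hub of all complement pathways, averaged 13.59 in cyclophosphamide livers and 13.6 in vehicle livers, a change of -0.01 ± 0.06 at a signal close to the array's top.

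All 4 terminal complement genes had a positive change that did not pass the test: C8a 0.25, C9 0.18, C8b 0.16 and C6 0.12. Of the inhibitors, C4bpb and C4bpa encode the chains of C4b-binding protein, which disables the C3 convertase and, in human plasma, carries protein S through its beta chain. C4bpb had 12.05, 12.43 and 12.63 in cyclophosphamide livers, against 11.68, 11.87 and 11.95 in vehicle livers (lowest, median, highest). The sets did not overlap, and rats 2005 and 4005 lay nearest to the vehicle rats. The change was 0.54 ± 0.11 for C4bpb (adjusted p = 0.0657) and 0.26 ± 0.08 for C4bpa (adjusted p = 0.186). Serping1, the C1 inhibitor that stops C1r, C1s and kallikrein, had 0.17 ± 0.08, and Cfi, the protease that cuts C3b and C4b, 0.08 ± 0.06.

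On the clotting side 0 members passed, and the 3 fibrinogen chains lay near the array's top. The 6 measured coagulation factors (F2, F5, F9, F10, F12 and Klkb1) ranged from -0.05 to 0.16, with adjusted p of at least 0.475. Prothrombin (F2) averaged 13.31 ± 0.04 in cyclophosphamide livers and 13.29 ± 0.02 in vehicle livers (SD, n = 6 each). Of the fibrinogen chains, Fgb had 13.51, 13.59 and 13.68 against 13.35, 13.43 and 13.47 in vehicle livers, a change of 0.17 ± 0.06 (adjusted p = 0.225), and Fga and Fgg had 0.06 and 0.03. A dimmer second probe set of Fga had a difference of 0.64, so its 2 probe sets disagree. The other 2 probe sets of Fgb, much dimmer, had differences of -0.14 and 0.34, so those of Fgb disagree as well. Serpinf2, the plasmin inhibitor alpha-2-antiplasmin, had 11.99, 12.05 and 12.23 in cyclophosphamide livers, against 11.73, 11.81 and 11.91 in vehicle livers. Its change of 0.28 ± 0.06 (adjusted p = 0.0866) was the largest of the anticoagulants and fibrinolysis genes, since Plg, Proc, Pros1, Serpinc1 and Serpind1 lay between -0.05 and 0.10. The shared kininogen probe set averaged 13.53 ± 0.09 in cyclophosphamide livers and 13.28 ± 0.10 in vehicle livers (SD, n = 6 each), without overlap, and was not tested.

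Among the acute phase genes the larger changes sat in those with the most spread between rats. Lbp, whose product hands bacterial lipopolysaccharide to CD14, had 11.32, 11.85 and 12.53 in cyclophosphamide livers, against 10.8, 10.87 and 11.29 in vehicle livers (lowest, median, highest). The sets did not overlap, but rat 2005 lay only just above the highest vehicle rat, 3003. The change was 0.93 ± 0.19 (1.90-fold; adjusted p = 0.0618). A2m had 6.89, 8.05 and 8.73 in cyclophosphamide livers, against 5.7, 6.57 and 8.11 in vehicle livers. The sets overlapped, since vehicle rat 1001 was above 3 of the cyclophosphamide rats, and the change was 1.19 ± 0.43 (adjusted p = 0.261). Lcn2 was blank in rat 2005 and had 6.31, 7.05 and 8.35 in the other cyclophosphamide livers, against 5.69, 6.24 and 7.33 in vehicle livers, a change of 0.96 ± 0.38 (adjusted p = 0.313). Orm1 (alpha-1-acid glycoprotein) had a change of 0.24 ± 0.08 (adjusted p = 0.221), and the remaining 9, which include the haemoglobin scavenger Hp, the haem carrier Hpx and C-reactive protein (Crp), lay between -0.06 and 0.10.

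**Figure D2:**
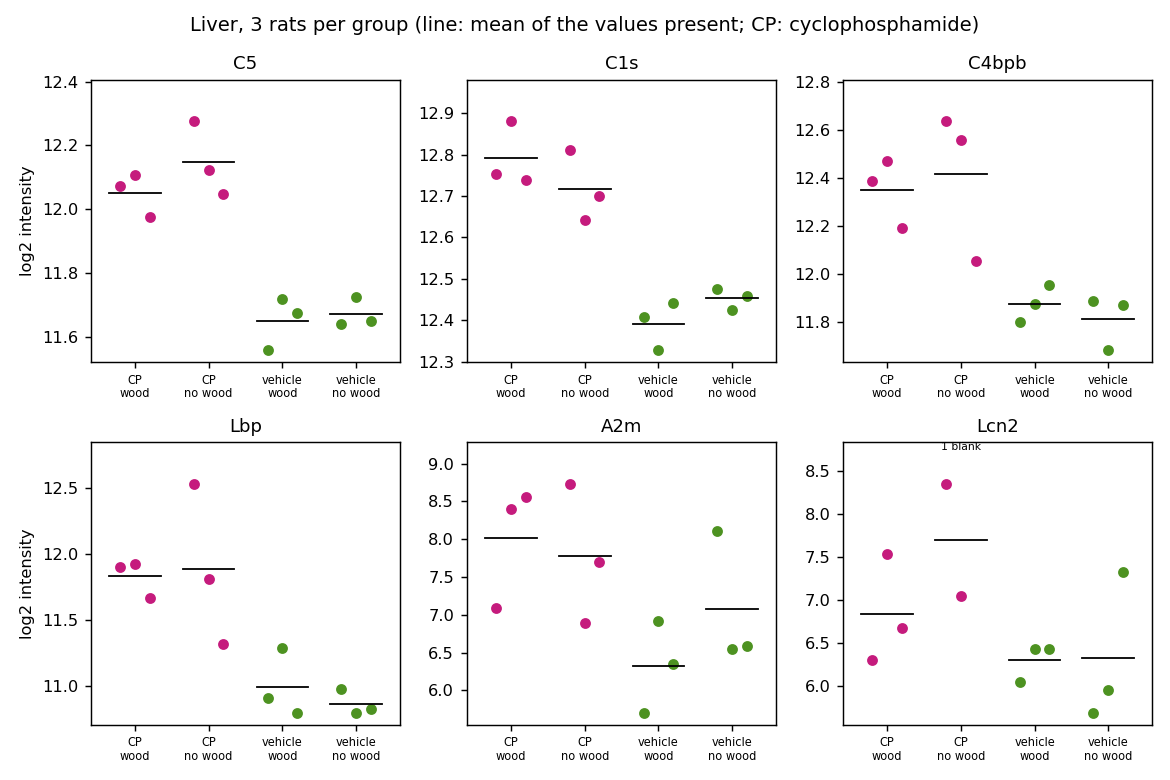
Log2 intensity of 6 members in each rat's liver, cyclophosphamide groups in pink left of vehicle groups in green, with a line at the mean of the values present. C5, C1s, C4bpb and Lbp do not overlap between cyclophosphamide and vehicle rats, while A2m and Lcn2 do.

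The rats of the cyclophosphamide groups were not alike. Rat 2001 had the highest value of all 12 livers in 16 of 43 members, among them C5, Mbl1, C4bpb, Lbp, Orm1 and A2m, against 8.84% of all genes. Rats 2003 and 4003 were highest in 7 members each (17.4% and 8.82% of all genes), and rat 2005 in 0 (9.11%). Within a group, the SD of a member in liver had a median of 0.08 and ran from 0.029 to 0.815 for A2m.

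Genes around these members were counted from lists chosen for these pathways. Of 15 other complement genes tested in liver, where 0.166% of all genes passed as higher and 0.647% as lower, 0 passed as higher and 4 as lower: Cfd (adipsin, which cuts factor B) fell by 1.24, Cfp (properdin, which stabilises the alternative convertase) by 1.39, C1qc by 0.80 and C1qa by 0.96. C1qa and C1qc encode chains of C1q, which macrophages make. The macrophage marker list, which also holds C1qa, had 0 higher and 4 lower of 7 tested, and its summed level was 11.01 to 11.7 in cyclophosphamide livers, against 12.07 to 12.38 in vehicle livers; its part in these falls was not tested. Of 23 other coagulation genes and 22 other acute phase genes, 0 passed in either direction. Hamp, which encodes the iron hormone hepcidin, had 13.31, 13.33 and 13.4 in cyclophosphamide livers, against 7.79, 10.05 and 12.57 in vehicle livers (lowest, median, highest). The cyclophosphamide rats sat together near the array's top and the vehicle rats were spread over several doublings, and the change of 3.41 ± 0.73 had an adjusted p of 0.0695. Of 23 upstream signalling genes, 0 passed as higher and 1 as lower, the cytokine Il1b, which fell by 1.66 (adjusted p = 0.00706). Stat3, the transcription factor that carries the interleukin 6 signal, had 0.91 ± 0.20 (adjusted p = 0.0846). The hepatocyte marker list had 0 calls of 11, with a summed level of 16.46 to 16.67 in cyclophosphamide livers and 16.54 to 16.65 in vehicle livers. That list also holds the member Serpina1 and shares genes such as Alb with the other acute phase list, so it is not separate from them. Serpina1 averaged 13.31 in liver, near the array's top, where differences can be compressed.

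Promoters of 36 members were matched by symbol in RefSeq (build GRCr8), each 250 bases before to 50 after the start. The strings searched on both strands were TTCNNNGAA (STAT), TTGCNNAA (C/EBP), CTGGGAA (the older interleukin 6 response string) and GTTAATNAT (HNF1). The C/EBP string was in 16 member promoters (44.4%, against 10.5% of 27457 promoters), the CTGGGAA string in 12 (33.3%, against 10.9%), the STAT string in 7 (19.4%, against 8.68%) and the HNF1 string in 4 (11.1%, against 0.75%). The STAT string can overlap CTGGGAA, as it does in C4bpb. These are matches of letters, described without a test. The promoters below are those of C5 (chr3:38759419-38759718, minus strand), the member that passed in liver; C4bpb (chr13:44683732-44684031, minus strand), an inhibitor without overlap between treatments; and Fgb (chr2:170700826-170701125, minus strand), a classic acute phase gene with a small change. Matches are in capitals, and all sequences are given on the strand of the gene.
C5: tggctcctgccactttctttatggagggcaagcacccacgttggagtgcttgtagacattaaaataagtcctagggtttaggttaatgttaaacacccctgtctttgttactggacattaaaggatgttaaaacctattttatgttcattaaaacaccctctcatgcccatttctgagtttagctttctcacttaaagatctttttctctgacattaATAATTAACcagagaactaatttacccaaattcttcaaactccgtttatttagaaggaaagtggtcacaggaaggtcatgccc
C4bpb: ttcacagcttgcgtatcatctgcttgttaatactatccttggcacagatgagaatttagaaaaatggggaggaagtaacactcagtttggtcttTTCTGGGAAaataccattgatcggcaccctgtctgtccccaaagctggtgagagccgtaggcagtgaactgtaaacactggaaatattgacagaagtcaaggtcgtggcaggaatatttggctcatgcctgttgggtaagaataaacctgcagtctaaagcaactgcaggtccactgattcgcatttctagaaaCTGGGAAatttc
Fgb: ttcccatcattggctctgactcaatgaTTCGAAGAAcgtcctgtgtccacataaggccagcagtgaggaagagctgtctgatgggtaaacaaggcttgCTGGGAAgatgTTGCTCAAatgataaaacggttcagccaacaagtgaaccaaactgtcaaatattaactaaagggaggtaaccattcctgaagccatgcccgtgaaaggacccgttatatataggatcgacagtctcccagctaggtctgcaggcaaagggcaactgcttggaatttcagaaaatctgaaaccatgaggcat
The C5 window held 1 HNF1 match (ATAATTAAC, at -33) and 0 of the other strings. The C4bpb window held the STAT string at -156, overlapping a CTGGGAA string, and a second CTGGGAA after the start, while Fgb held STAT at -223, CTGGGAA at -152 and C/EBP at -141. Fgb, with the smallest change of these 3 genes, thus held more kinds of string than C5, a description of these windows alone.

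Wood made no difference among the members in liver that the test could call. limma called 0 of 44 members between livers with and without wood (background 0% of 12683 genes), and 0 had an unadjusted p under 0.05 (781 genes did); the smallest adjusted p was 0.858. The same held for the interaction of drug and wood, with 0 members called (background 0%) and 0 with an unadjusted p under 0.05 (650 genes did). Trended and robust moderation also called 0 members in both. Tested within 1 housing, the drug gave 0 member calls with wood (background 0.0473%) and 0 without (background 0.15%). With wood 8 members had an unadjusted p under 0.05 (8.12% of all genes did), and without it 9 (11.9%).

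In the spleen the same drug moved members in both directions. C1r, C1s, Masp1, Serping1, Pros1 and A2m rose, while F5, C3, Hp and Orm1 fell. These first 6 were above the array median on every spleen array. That count includes the cyclophosphamide arrays, so a fall could take a member out of it. C3 and F5 were above the median on 10 of 12 arrays each. Their vehicle values were 7.77 to 8.49 and 8.62 to 9.3, against spleen array medians of at most 6.92. limma called 8 of 39 tested members higher (background 26.9% of 13614 genes) and 8 lower (background 28.1%), so the share called was not above that of all genes. The median change of the members was 0.003 and that of all genes -0.02. The values did not overlap in 6 members on the high side (background 16.1% of 12837 genes with a value on every array) and in 4 on the low side (background 15.1%), of 33 members with 12 values. C4bpa, Fgb, Proc, Serpinc1 and Serpinf2 had a group with no value and were not tested. The spleens differed in cell markers as well: the summed stroma markers were at 13.44 to 13.67 in cyclophosphamide spleens, against 12.14 to 12.49 in vehicle spleens, the endothelial ones at 13 to 13.33 against 12.16 to 12.58, and the macrophage ones at 14.5 to 14.65 against 13.54 to 13.84 (8 of 9, 6 of 6 and 6 of 7 called higher). B cell markers were at 8.48 to 9.74 in cyclophosphamide spleens, against 13.39 to 13.9 in vehicle spleens, and erythroid markers at 7.47 to 8.67 against 13.15 to 14.26 (3 of 3 and 5 of 5 called lower). The part of these shifts in the member changes was not tested.

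**Figure D3:**
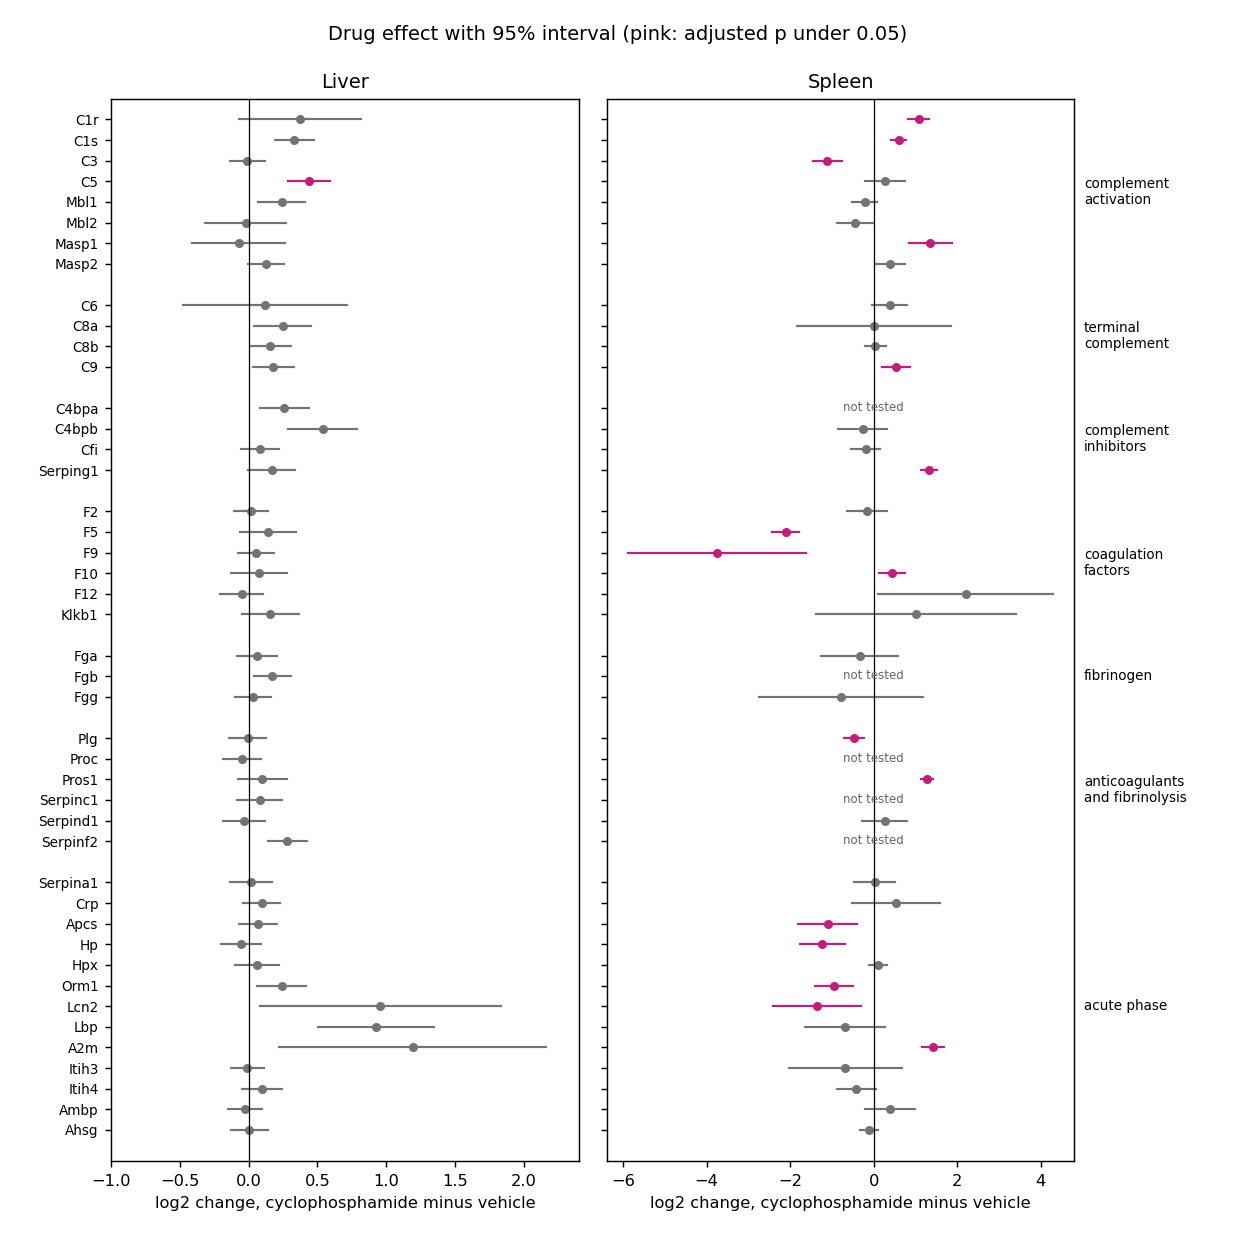
Log2 change, cyclophosphamide minus vehicle, of each member in liver (left) and spleen (right) with its 95% interval; pink marks an adjusted p under 0.05, and the 2 panels have different axes. C5 is the single pink member in liver, while 8 members are pink on the high side and 8 on the low side in spleen.

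C1r had 12.11, 12.3 and 12.42 in cyclophosphamide spleens, against 10.78, 11.26 and 11.67 in vehicle spleens (lowest, median, highest). The sets were well apart, and the gene rose by 1.08 ± 0.11 (2.11-fold; adjusted p = 2.7e-05). C1s had 12.43, 12.58 and 12.66 in cyclophosphamide spleens, against 11.58, 12.05 and 12.08 in vehicle spleens, and rose by 0.60 ± 0.08 (1.51-fold; adjusted p = 0.000142). Serping1, the inhibitor of both, had 11.72, 11.91 and 12.1 in cyclophosphamide spleens, against 10.34, 10.61 and 10.75 in vehicle spleens. It rose by 1.32 ± 0.08 (2.50-fold; adjusted p = 1.39e-06), so a protease pair and its inhibitor moved the same way, without overlap between treatments.

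Masp1, a protease of the lectin pathway, had 8.17, 8.62 and 9.24 in cyclophosphamide spleens, against 6.86, 7.36 and 7.72 in vehicle spleens, and rose by 1.36 ± 0.23 (adjusted p = 0.000701). Its other probe sets had differences of 0.12 and -0.11 in spleen, so the rise rests on 1 of 3 probe sets. C9, the pore-forming unit, had 5.53, 5.82 and 6.33 against 4.46, 5.33 and 6.2, and rose by 0.53 ± 0.15 (adjusted p = 0.0142). Its values overlapped, and vehicle rats without wood were the lowest. On the 8 spleen arrays with fewer blanks, where the drug is compared in wood-housed rats alone, the C9 change was 0.02 (adjusted p = 0.961). Mbl1, Mbl2, Masp2, C5, C6, C8a, C8b, C4bpb and Cfi did not pass, with changes between -0.45 and 0.39. For Mbl2 and Masp2 the direction depends on the probe set. The Mbl2 probe set used had a difference of -0.45 in spleen and the other one 1.41, and with the mean of both Mbl2 was called higher (0.48, adjusted p = 0.023), whereas without rat 2005 or 4003 it was called lower (-0.57 and -0.55). The Masp2 probe set used had 0.39 and the others -1.83 and -0.42. Masp2 was called lower with the mean of its probe sets (-0.62, adjusted p = 0.00104) or the one of the highest own mean (-0.42, adjusted p = 0.000431). It was called higher after quantile normalisation (0.46) or median centring (0.43), and without rat 1001, 2005 or 3003 (0.47, 0.47 and 0.49).

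Protein S (Pros1), the cofactor of activated protein C, had 10.14, 10.28 and 10.46 in cyclophosphamide spleens, against 8.82, 8.99 and 9.27 in vehicle spleens. It rose by 1.27 ± 0.07 (2.42-fold; adjusted p = 6.91e-07), the smallest adjusted p of the members. A2m, the broad protease inhibitor, had 8.42, 8.7 and 9.01 in cyclophosphamide spleens, against 7.1, 7.35 and 7.5 in vehicle spleens. It rose by 1.42 ± 0.12 (2.67-fold; adjusted p = 8.32e-06), and its liver change was 1.19 ± 0.43. Factor X (F10) had 6.94, 7.67 and 7.82 against 6.69, 7.17 and 7.44, overlapped, and rose by 0.44 ± 0.14 (adjusted p = 0.0261), passing in 5 of 12 refits without 1 rat. The call was lost, with an adjusted p of at most 0.0604, without rat 2001, 2003, 4003, 4005, 1005, 3001 or 3005. With the blank split as a batch term the F10 change was 0.20 (adjusted p = 0.208). On the arrays with fewer blanks it was 0.41 and passed (adjusted p = 0.0298).

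On the falling side, C3 had 6.71, 7.04 and 7.41 in cyclophosphamide spleens, against 7.77, 8.23 and 8.49 in vehicle spleens (lowest, median, highest), and fell by 1.11 ± 0.16 (adjusted p = 0.00023). Factor V (F5), the cofactor of factor X that platelets also carry, had 6.44, 6.94 and 7.24 in cyclophosphamide spleens, against 8.62, 8.94 and 9.3 in vehicle spleens. It fell by 2.11 ± 0.15 (adjusted p = 2.5e-06), with a wide gap between the sets. The platelet and megakaryocyte markers, 4 of 5 called lower, summed to 11.27 to 11.87 in cyclophosphamide spleens, against 12.28 to 13 in vehicle spleens; their part in the fall of F5 was not tested.

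Haptoglobin (Hp) had 5.41, 5.57 and 5.71 in cyclophosphamide spleens, against 6.21, 6.65 and 7.89 in vehicle spleens, and fell by 1.23 ± 0.24 (adjusted p = 0.00174). Orm1 had 4.64, 4.89 and 5.17 against 5.32, 5.83 and 6.56, and fell by 0.95 ± 0.20 (adjusted p = 0.00293). Both were below the spleen median on most arrays, and vehicle rat 1001 was the highest for both, as it was for Lcn2. Lcn2 had 3.71, 4.96 and 5.81 in cyclophosphamide spleens, against 4.67, 6.27 and 7.92 in vehicle spleens, and fell by 1.35 ± 0.47 (adjusted p = 0.0329). It passed in 5 of 12 refits without 1 rat, and was lost, with an adjusted p of at most 0.0688, without rat 2005, 4001, 4005, 1005, 3001, 3003 or 3005. Hp and Lcn2 are also stored in granules of neutrophils, and the granulocyte markers, 4 of 6 called lower and 1 higher, summed to 8.81 to 11.15 in cyclophosphamide spleens, against 11.07 to 13.44 in vehicle spleens; their part was not tested. Apcs (serum amyloid P) fell by 1.11 ± 0.32 (adjusted p = 0.0137) and Plg by 0.47 ± 0.11 (adjusted p = 0.00456), with overlapping values of 3.59 to 5.83 against 4.66 to 6.25 for Apcs and 4.98 to 5.59 against 5.32 to 6.26 for Plg. With the blank split as a batch term the Apcs change was -0.57 and no longer passed (adjusted p = 0.101). On the arrays with fewer blanks it was -1.02 and passed (adjusted p = 0.0417). For Plg the change was -0.31 on the arrays with fewer blanks (adjusted p = 0.121) and -0.53 with the batch term (adjusted p = 0.00864).

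F9 was called lower with an adjusted p of 0.0124, but on few values near the floor. It read -3.87 in rat 2001, 3.59 in 4001 and 1.12 in 4003 and was blank in the other 3 cyclophosphamide spleens, against 1.34 to 4.16 in 5 vehicle spleens and 1 blank. Rat 2001 gave the single value of its group, and on the 8 arrays with fewer blanks the change was -0.66 (adjusted p = 0.678). Hepatocyte markers, with the member Serpina1 among them, had 0 higher and 1 lower of 10 in spleen. Their summed levels were 8.78 to 9.78 in cyclophosphamide spleens and 9.06 to 10.11 in vehicle spleens. Exocrine pancreas markers, from tissue next to the spleen, summed to 9.3 to 14.36 in cyclophosphamide spleens, against 8.68 to 10.33 in vehicle spleens (1 of 9 called higher); their part in the member changes was not tested.

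**Figure D4:**
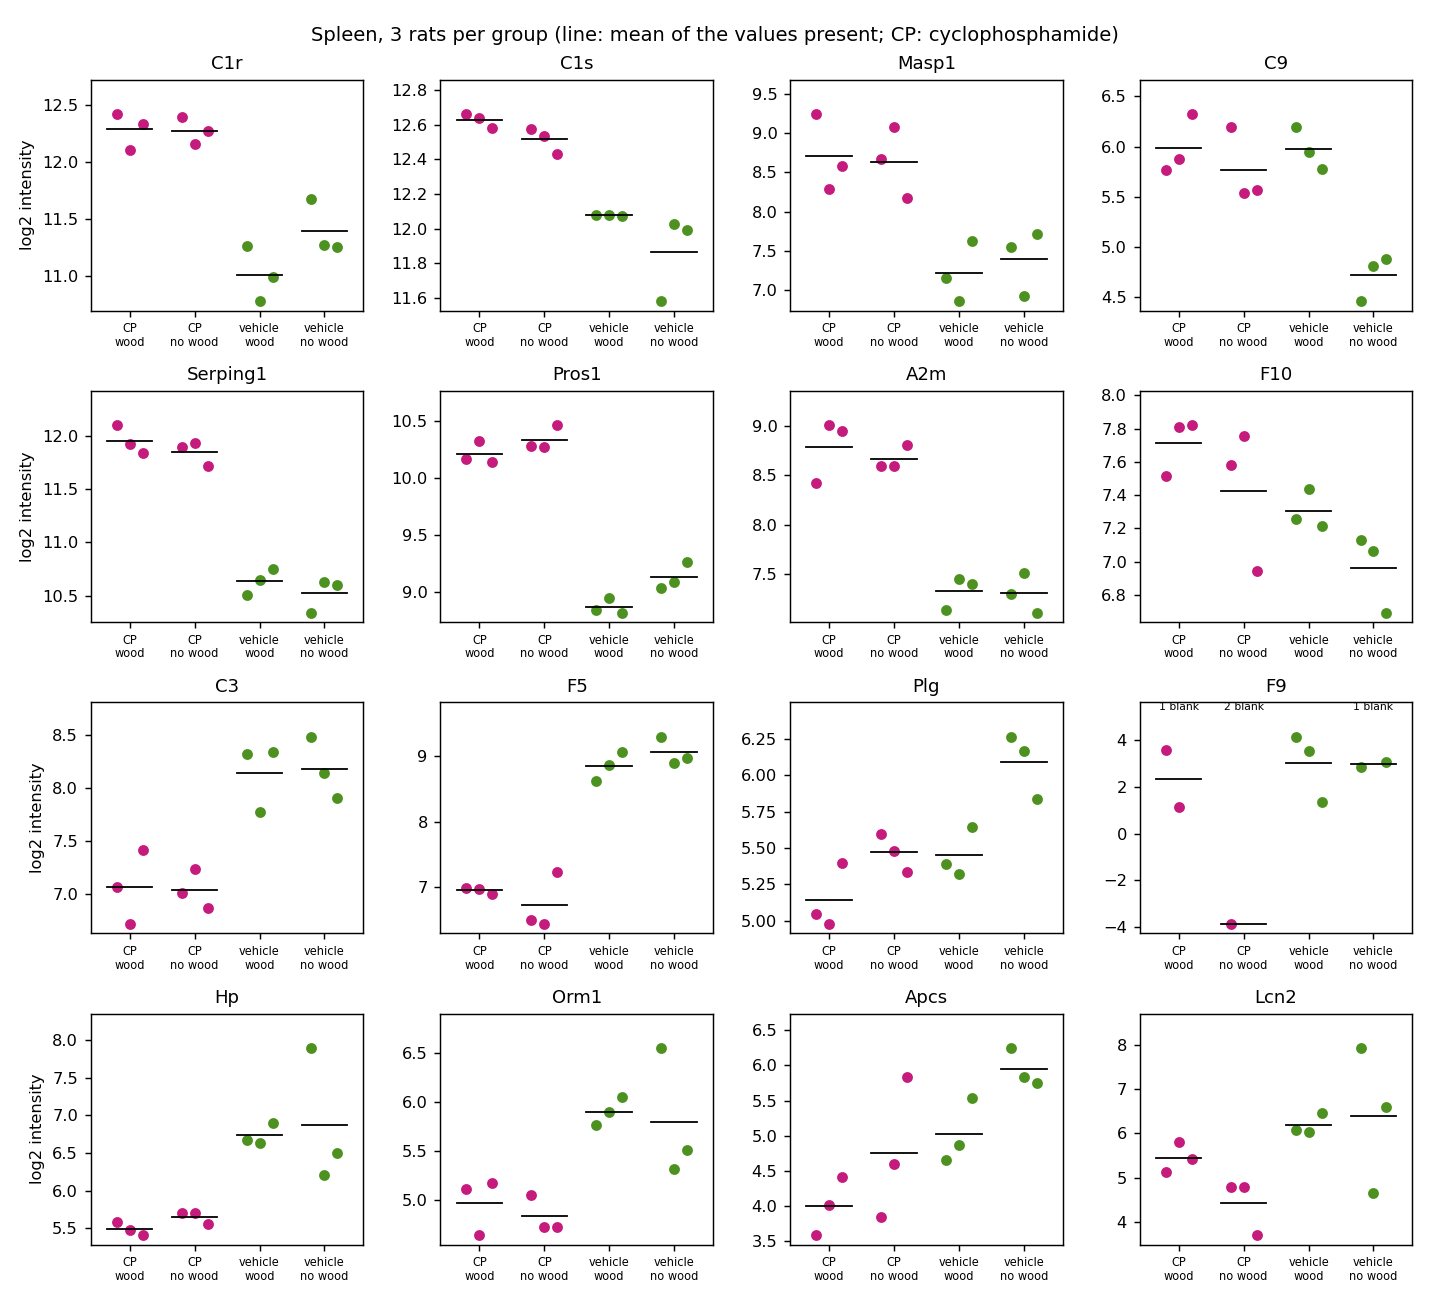
Log2 intensity in each rat's spleen of the 16 members past the threshold for the drug, cyclophosphamide groups in pink left of vehicle groups in green, with a line at the mean of the values present. C1r, C1s, Masp1, Serping1, Pros1 and A2m lie wholly higher and C3, F5, Hp and Orm1 wholly lower in cyclophosphamide rats, and F9 has 4 blanks.

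Tested within 1 housing, the drug called 6 members higher with wood (background 19.9%) and 9 without (background 22.7%). On the low side it called 4 with wood (background 18.5%) and 7 without (background 22.4%). C1r, C1s, Masp1, Serping1, Pros1 and A2m passed as higher and C3, F5, Hp and Orm1 as lower in both housings. With the split of blank-rich spleen arrays as a batch term, 6 members passed as higher and 7, with Itih3 among them, as lower. All vehicle spleens without wood were blank-rich, so the array of rat 2005 alone sets this term. It therefore cannot by itself allow for the split. Without those 4 arrays, where the drug is compared in wood-housed rats alone, 7 and 7 passed. The shares of all genes passing in these settings are not given here. The interaction called 0 members (background 0.705%), with a smallest adjusted p of 0.2. An unadjusted p under 0.05 was found in 4 of 39 members and in 13% of all genes. Trended and robust moderation also called 0 members for the interaction. With the batch term it called 1, Itih3 (3.67, adjusted p = 0.000606), and without rat 1005 it called 1, F12. The Itih3 call rests on 1 reading, 1.43 in rat 2005, against 4.95 to 5.91 on the other spleen arrays.

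The promoters of a pair of spleen risers, C1r (chr4:159098763-159099062, plus strand) and Pros1 (chr11:13677049-13677348, plus strand), and of C3 (chr9:2201290-2201589, minus strand), which fell, are shown with the same 4 strings in capitals (RefSeq, GRCr8).
C1r: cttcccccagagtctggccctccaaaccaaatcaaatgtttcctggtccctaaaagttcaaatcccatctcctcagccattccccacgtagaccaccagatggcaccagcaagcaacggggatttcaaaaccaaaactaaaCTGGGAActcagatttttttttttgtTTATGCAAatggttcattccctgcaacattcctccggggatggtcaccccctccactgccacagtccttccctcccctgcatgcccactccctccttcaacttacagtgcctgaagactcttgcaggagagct
Pros1: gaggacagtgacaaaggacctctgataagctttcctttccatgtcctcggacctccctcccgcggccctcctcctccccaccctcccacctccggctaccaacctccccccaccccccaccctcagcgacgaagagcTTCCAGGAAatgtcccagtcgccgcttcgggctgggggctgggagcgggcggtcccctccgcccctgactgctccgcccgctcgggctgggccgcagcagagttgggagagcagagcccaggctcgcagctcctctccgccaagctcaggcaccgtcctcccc
C3: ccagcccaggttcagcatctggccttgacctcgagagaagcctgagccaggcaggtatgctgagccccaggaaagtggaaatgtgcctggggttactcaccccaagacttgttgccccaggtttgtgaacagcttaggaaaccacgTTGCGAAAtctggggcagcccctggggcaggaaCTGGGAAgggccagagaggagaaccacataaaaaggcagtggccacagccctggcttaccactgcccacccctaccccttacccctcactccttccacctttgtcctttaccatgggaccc
C1r and C3 held the same pair of strings, C/EBP (at -83 and at -104) and CTGGGAA (at -109 and at -71), although their spleen changes had opposite signs. Pros1 held the STAT string alone, at -113.

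Other genes of these systems were called in spleen too, where 26.9% of all genes passed as higher and 28.1% as lower. Of 16 other complement genes, 8 were higher and 3 lower: the scavenger collectin Colec12 rose by 1.52, while the receptor Cr2 of B cells fell by 3.53 and the convertase inhibitor Cd55 fell by 3.21. The 4 probe sets shared by Cfb and C2 had means of 9.11 to 9.69 in cyclophosphamide spleens, against 7.96 to 8.72 in vehicle spleens, and were not tested. Of 23 other coagulation genes, 16 were higher and 3 lower, among them the vitamin K reductase Vkorc1 (1.17), urokinase Plau (1.29) and the thrombin receptor F2r, which averaged 11.68 in cyclophosphamide spleens and 10.69 in vehicle spleens. All 3 of these rose. Of 19 other acute phase genes, 5 were higher and 2 lower, with the copper carrier Cp up by 1.27, the lipopolysaccharide receptor Cd14 by 1.66 and angiotensinogen Agt by 2.37. Of 25 upstream signalling genes, 8 were higher and 5 lower: Il6 fell by 2.65, while Il6st, the shared receptor chain of the interleukin 6 family, rose by 1.12 and the receptor Tnfrsf1a by 1.14. Of the hepatocyte transcription factors, 0 of 9 passed in liver and 1 of 8 in spleen, Prox1, which rose by 0.81.

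The drug effect itself was compared between the organs. Of 39 members tested in both, 11 had a higher change in liver than in spleen (background 14.7%) and 5 a lower one (background 18.4%). The difference was 2.25 ± 0.18 for F5 (adjusted p = 8.66e-08), which had a change of 0.14 in liver and fell by 2.11 in spleen. It was -1.17 ± 0.10 for Pros1 (adjusted p = 1.61e-07) and -1.16 ± 0.11 for Serping1 (adjusted p = 4.59e-07), whose liver changes were 0.10 and 0.17. C3, Hp and Orm1 differed by 1.10, 1.17 and 1.18, with liver changes of -0.01, -0.06 and 0.24. In liver C3 and Hp averaged 13.6 and 13.45, near the array's top, where differences can be compressed. Orm1 was below the array median on every spleen array. Lbp differed by 1.62 ± 0.49 (adjusted p = 0.0164), although neither organ passed alone, and C4bpb by 0.80 ± 0.30 (adjusted p = 0.0451). In refits without 1 rat, Lbp was lost without rat 2001, and C1r without 2003, 2005, 4001, 1003 or 3003. C4bpb passed in 3 of 12 refits (without 2005, 4005 or 1005; adjusted p up to 0.127 in the others), C1s in 3 (without 2005, 1003 or 1005) and Mbl1 in 4 (without 2003, 4001, 1001 or 3005). For A2m the changes were 1.19 in liver and 1.42 in spleen, and the difference was not called.

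Between spleens with and without wood 5 members were called, a share near that of all genes. These 5 lay below the array median on nearly all spleen arrays. limma called 2 members higher with wood (background 6.05% of 13614 genes), C9 and factor XII (F12), and 3 lower (background 6.05%), Plg, Itih4 and the fibrinogen chain Fga. The change was 0.74 ± 0.15 for C9 (adjusted p = 0.0205), -0.48 ± 0.11 for Plg (0.0247), -0.89 ± 0.21 for Itih4 (0.0284) and -1.78 ± 0.41 for Fga (0.0291). F12, the contact activation factor, had an adjusted p of 0.0492: it read 6.42 to 6.93 in the 6 spleens with wood and 6.62 and 6.46 in rats 2001 and 2003, but 4.03, -1.78 and 3.83 in rats 2005, 1003 and 1005 and blank in 1001. Those last 4 are the arrays with over 1500 blank cells. Itih4 showed the mirror image, at 4.03 to 4.72 in the 6 spleens with wood and 4.8 and 4.32 in rats 2001 and 2003, against 5.47 to 5.77 on the 4 blank-rich arrays.

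Among vehicle rats all 3 arrays without wood were blank-rich and all 3 with wood were not, so wood and blank count cannot be told apart there. Within cyclophosphamide rats, where 1 array of 6 was blank-rich, limma called 0 of 39 members for wood (background 0%). There 2 members had an unadjusted p under 0.05, as did 8.62% of all genes. With the blank split as a batch term 0 of these 5 members passed (adjusted p of 0.345 to 0.891), while Itih3 did (-1.57, adjusted p = 0.0129). That Itih3 call rests on its single low reading, 1.43 in rat 2005, the array that alone sets the batch term. On the 8 arrays with fewer blanks, where wood is compared in cyclophosphamide rats alone, 0 passed (0.726 to 0.984 for the 5). In refits without 1 rat C9 passed in 12 of 12 and F12 in 1 of 12, the one without rat 1005, with F12 changes of 1.93 (without rat 1003) to 4.74. In these refits the 3 lower calls became 1 without rat 1001, 1003, 1005 or 3001 and 0 without 4003. Over the members with 12 values, 3 lay wholly higher on the 4 blank-rich arrays than on the other 8 (C8a, Apcs and Itih4) and 1 wholly lower (F10), of 33. Among all genes 7.24% lay wholly higher and 6.18% wholly lower on those arrays, so the members' counts were near the background.

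**Figure D5:**
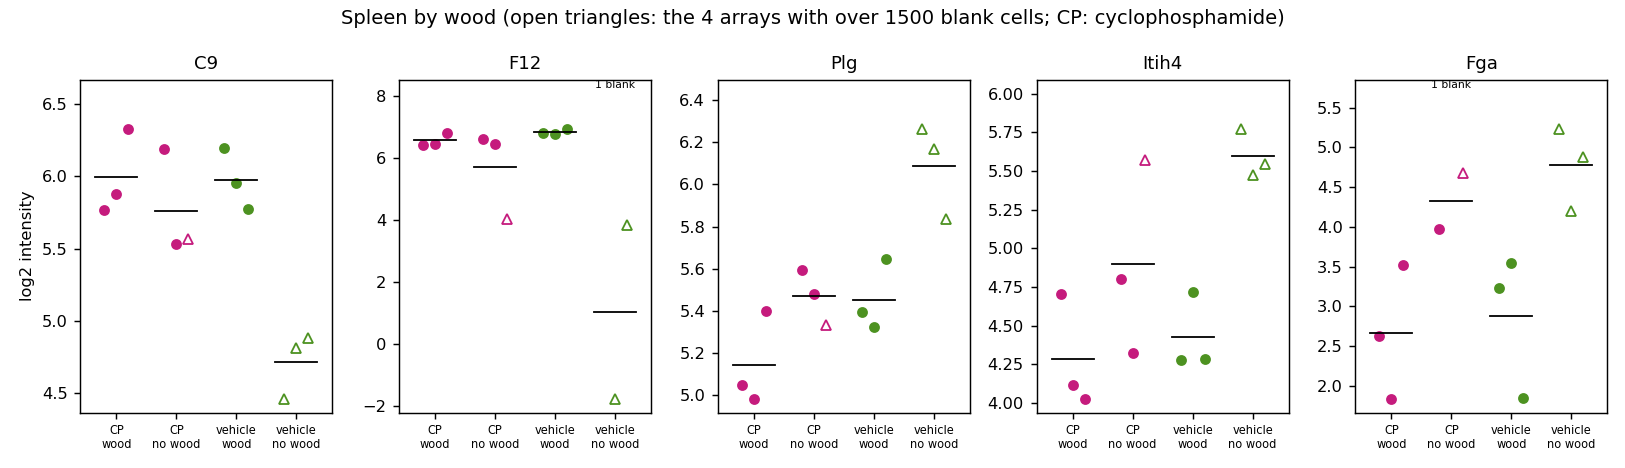
Log2 intensity in each rat's spleen of the 5 members called for wood, cyclophosphamide in pink and vehicle in green, wood left of no wood, with open triangles for the 4 arrays with over 1500 blank cells and a line at the mean of the values present. For F12 and Itih4 all readable triangles lie apart from all other points, and for Fga they lie above them.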

How the data were processed

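Total RNA of liver and spleen (5 µg of each, per the labels' protocols) was measured on Affymetrix Rat 230 2.0 arrays. The deposited values are log10 intensities; the base was inferred from their range, and the authors' summary method and scaling are not stated in the labels. They were multiplied by 3.32, the log2 of 10, and 77831 of 743520 cells that were blank stayed missing. Of 30980 probe sets, 20792 name a single gene by the annotation table supplied for the platform. A gene with several was read from the brightest, by its average over the 24 arrays of log2(intensity + 16) with blanks at 0; the mean of own values picks the same one for 43 of 44 members, all but Masp2. A gene was tested where each group had a value.

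R 4.3.3 and limma 3.58.1 fitted 4 group means per organ, and 8 for both organs, with eBayes; p-values were adjusted by Benjamini-Hochberg over all genes tested in a contrast, threshold 0.05. The drug effect is the mean over both housings, cyclophosphamide minus vehicle. SE is that of the fit, and intervals are at 95%. Rats are the replicates, so their number limits the precision. No 2 arrays were identical. Liver and spleen of a rat share its number: the correlation of their deviations from the group means ran from -0.058 to 0.17 over 10530 genes. The fit was tested on simulated data. Alternatives covered scaling, offset, filters, probe set choice, moderation, blanks, single rats and the animal as a block. Marker lists are summed on the linear scale and given as log2. Promoters come from RefSeq; Python 3.11.15 and pandas 2.3.3 did the rest.

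The members, gene lists and tests were chosen with earlier results of these data known. Any member may be named; full values go to those past the threshold for the drug, and to up to 6 with the smallest adjusted p in other contrasts. Hamp and Stat3 were among the first 3 of their lists.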

Additional observations from a re-analysis of the deposited data

Results flagged for a closer look

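The drug effect (cyclophosphamide minus vehicle) differed between liver and spleen in 16 of 39 members. The limma test was of the difference itself, with Benjamini-Hochberg adjustment over 12474 genes. The change was higher in liver in 11 members (background 14.7%) and lower in 5 (background 18.4%). A positive value means a higher change in liver. The differences were 2.25 for F5, 3.80 for F9, 2.31 for Lcn2, 1.62 for Lbp, 1.18 for Orm1, 1.17 for Hp, 1.17 for Apcs, 1.10 for C3, 0.80 for C4bpb, 0.46 for Plg and 0.45 for Mbl1. They were -1.43 for Masp1, -1.17 for Pros1, -1.16 for Serping1, -0.70 for C1r and -0.27 for C1s. The F9 value rests on few spleen readings near the floor, and that of Masp1 on 1 of 3 probe sets. Lbp, Orm1, Apcs, C4bpb, Plg and Mbl1 were below the array median on every spleen array, and C3 and Hp lay near the array's top in liver. With the animal as a fixed block, the calls of C1s (adjusted p = 0.079), Lbp (0.0542) and Mbl1 (0.0531) were lost.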

How the results depend on the processing

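The single rise in liver was at the edge of the threshold: without 1 rat, 0 to 3 members passed as higher. It was 4 with log2(intensity + 16), 5 among genes at or above the median level, 2 with at least 2 values per group, 2 with the probe set of the highest own mean, 6 with trended and robust moderation, and 0 within either housing. Outside the single housings, the shares of all genes passing under these settings are not given here. A larger count therefore need not be a trait of the members. In spleen, falls for the drug numbered 1 among genes at or above the median level, where 7 members were left, and 4 with wood. Wood calls in spleen, higher and lower, were 0 and 0 at or above the median level, 0 and 1 with the batch term, 0 and 0 on arrays with fewer blanks, 0 and 0 within cyclophosphamide, and 1 to 2 and 0 to 4 without 1 rat. The spleen interaction gave 1 higher with the batch term, and 0 to 1 lower without 1 rat. Members lower in liver than in spleen were 0 with median centring and 2 with the probe set of the highest own mean. Members with a lower drug effect in liver were 3 with the mean of all probe sets and 3 to 7 without 1 rat. Among members that were called (or, in liver, had an unadjusted p under 0.05), sign turned in 3 values: the organ difference of C1s (-0.20, quantile normalisation) and of Masp2 (-1.51, own mean), and the organ difference of the drug effect of Masp1 (0.15, mean of all probe sets). Masp2 and Mbl2, not called for the drug in spleen, turned sign with other probe set choices (-0.42 and -0.62 for Masp2, 0.48 for Mbl2). The cause was not tested. With the animal as a replicate block, 38 members were higher and 1 lower in liver (consensus correlation 0.072), and the drug effect was higher in liver in 11 and lower in 5, or 9 and 4 with a fixed block. Of the other values of named members under alternatives, 1822 kept direction and side, 129 no longer passed and 18 newly passed. That pool holds the organ differences, most of them of several doublings, and liver members that failed both times. It therefore does not measure how stable the drug and wood calls were. Blank cells near the floor limit spleen values, and signal near the array's top limits those of liver.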
